A study of Rattus norvegicus with 12 samples.

Results

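The 10 genes described here, all of the Notch pathway, were examined in the hippocampus of rats from lines bred for high or low locomotor response to novelty. They were the receptors *Notch1*, *Notch2* and *Notch3*, the ligands *Dll1*, *Jag1*, *Jag2* and *Dlk1*, and the transcriptional repressors *Hes1*, *Hes5* and *Hey1*. They were chosen by gene symbol, and each was read by 1 probe, so that 10 of the 22523 probes and 10 of the 21567 gene symbols on the array were involved. Total RNA of the whole hippocampus was hybridised to Illumina RatRef-12 BeadChips from 6 bred High Responder (bHR) and 6 bred Low Responder (bLR) rats. All 12 were males of generation F15, killed at postnatal day 14 with no treatment named in the labels. Each gave 1 array (n = 6 per line except where arrays were left out), which limits the precision. Values below are log2 signals after quantile normalisation, and differences are bHR minus bLR.

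Notch receptors are membrane proteins that are cut when a Delta or Jagged ligand on a neighbouring cell pulls on them. The freed intracellular domain joins the DNA-binding protein Rbpj and turns on Hes and Hey genes, whose products hold back proneural factors. In the dentate gyrus this signalling is known for keeping radial glia-like progenitors undifferentiated, and in blood vessels *Notch3* is a receptor of pericytes and smooth muscle.

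Mean signal per array ran from 453.3 to 1038 units, and bHR replicates 27, 29 and 39 gave the 3 dimmest arrays (453.3 to 488.3 units). The other 9 arrays, 3 bHR and 6 bLR, read 750.1 to 1038 units, so brightness was spread unevenly over the lines. bHR replicate 27 stood apart, with a mean correlation of 0.987 with the other arrays against at least 0.992 for the rest. Markers of choroid plexus, all 9 measured, differed widely among the rats. Their summed linear signal ran from 4442 to 55450 units in bHR, with 4448 in replicate 27, and from 16760 to 50800 in bLR. The part of this tissue in the values below was not tested. Of 14 hippocampal neuron markers 12 were measured, 9 of them above the median of all probes (log2 6.66) in at least 1 line, whereas *Lct*, *Dsp* and *Tdo2* were dimmer than that in bHR and bLR alike. The 12 had a median difference of -0.029, with 4 higher and 8 lower in bHR. All 7 measured ependymal markers were higher in bHR (median +0.192). Of 8 thalamus and habenula markers 5 were higher and 3 lower (median +0.036). None passed limma's adjusted p of 0.05. An unadjusted limma p under 0.05 was reached by 2, 1 and 2 of these lists' markers, beside 6.02% of all probes. What these cells add to the values below was not tested. Since bulk tissue was measured, fewer cells of a type and less RNA per cell cannot be told apart.

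At limma's adjusted p of 0.05, which 20 probes of the array reached (0.0888%), 0 of the 10 genes were called. At an unadjusted p under 0.05 there was 1 of the 10, *Hes5*, where 6.02% of all probes passed. The ranges of the lines overlapped for all 10, and they were separate for 0.391% of all probes. Mean signals were higher in bHR for 6 genes, beside 50.9% of all probes, and lower for 4. On the 9 brighter arrays alone 0 of the 10 were called, beside 0.0755% of all probes. The median difference of the 10 was +0.06 against +0.0017 over all probes. The largest differences among the 10 were +0.16 for *Hes5* and -0.15 for *Notch1*, a fold of 1.12 and 0.899. The 95% intervals of the 10 differences together spanned a fold of 0.805 to 1.25 between the lines.

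**Figure D1:**
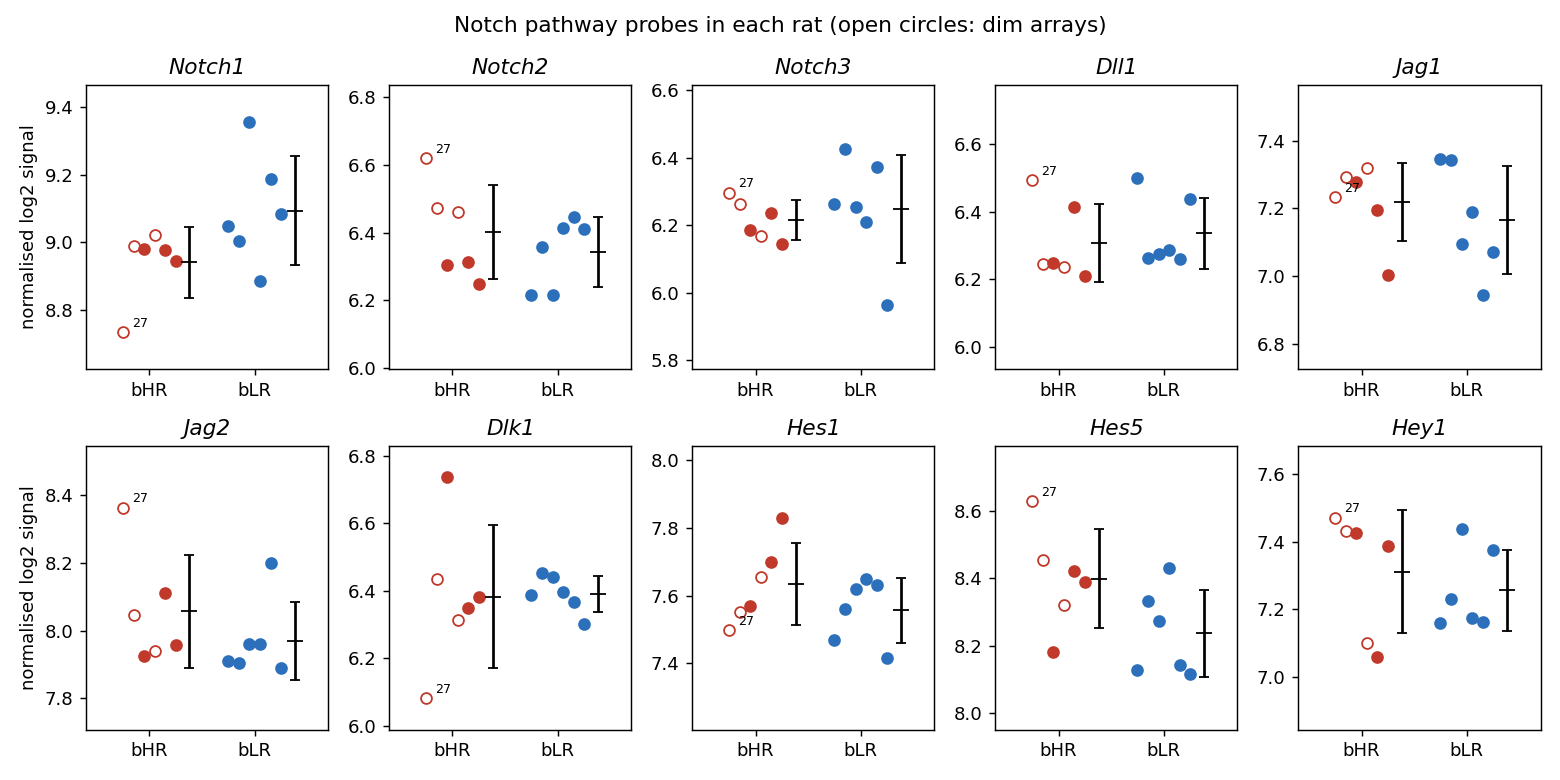
Normalised log2 signal of the 10 probes in each rat, with bHR in red, bLR in blue, open circles for the 3 dim arrays, bHR replicate 27 numbered, and bars for the mean and SD of 6 rats. Each panel spans the same log2 height, and in every panel the points of both lines overlap.

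Among the receptors, *Notch1*, which is expressed in neural progenitors and astrocytes, read 8.73, 8.99, 8.98, 9.02, 8.98 and 8.94 in bHR replicates 27, 29, 33, 39, 41 and 47. In bLR replicates 26, 28, 30, 38, 42 and 46 it read 9.05, 9.005, 9.36, 8.88, 9.19 and 9.08. All 6 bHR rats lay below the bLR mean, but bLR replicate 38 was lower than 5 of the bHR rats, and the lowest value of all belonged to bHR replicate 27. bHR averaged 8.94 ± 0.10 (SD, n = 6) and bLR 9.09 ± 0.16, which differ by -0.15 ± 0.07 (SE, 95% interval -0.31 to 0.0062). It did not pass limma (adjusted p = 0.828) or an exact two-sided permutation test over all assignments of the rats to the lines (p = 0.0844). Its size depended on scaling: median centring of the arrays gave -0.41 (limma adjusted p = 0.17). Unscaled values gave -0.61 (limma adjusted p = 0.092), where all probes, dim ones included, shifted by a median of -0.22. The Notch-cutting proteases described below, all 8 above the median of all probes, shifted by a median of -0.47 unscaled and -0.27 with median centring. Within the 9 brighter arrays the *Notch1* difference was -0.13 after quantile normalisation, -0.18 with median centring and -0.22 without scaling. None of these passed the threshold.

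*Notch2* and *Notch3* gave signals under the median of all probes on all 12 arrays, so that little of their signal can be set apart from background. *Notch2*, a receptor of the same family, had a bHR mean of 6.40 ± 0.14 (SD, n = 6) and a bLR mean of 6.34 ± 0.10. Its 3 dim bHR arrays read 6.62, 6.47 and 6.46, above the 3 brighter ones at 6.30, 6.31 and 6.25, and the bLR rats ran from 6.21 through a median of 6.38 to 6.45. The difference of +0.06 ± 0.07 (SE; limma adjusted p = 0.941) was -0.06 within the 9 brighter arrays.

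For *Notch3* the bHR mean was 6.22 ± 0.06 (SD, n = 6) and the bLR mean 6.25 ± 0.16, which differ by -0.03 ± 0.07 (SE; limma adjusted p = 0.966). The bHR rats lay between 6.14 and 6.30, inside the bLR range of 5.96 (replicate 46) to 6.43 (replicate 28). Of 9 markers of pericytes and smooth muscle, 7 were measured, 5 of them lower in bHR, with a median difference of -0.06. None passed limma's adjusted p of 0.05, while 2 of the 7 had an unadjusted limma p under 0.05, beside 6.02% of all probes. Their summed linear signal ran from 1037 to 1187 units in bHR and from 1167 to 1426 in bLR, and the part of these cells in the *Notch3* value was not tested.

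Of the ligands, *Jag2*, a Jagged ligand, read 8.36, 8.05, 7.92, 7.94, 8.11 and 7.96 in bHR replicates 27, 29, 33, 39, 41 and 47. In bLR replicates 26, 28, 30, 38, 42 and 46 it read 7.91, 7.90, 7.96, 7.96, 8.20 and 7.89. Replicate 42 stood 0.771 of the bLR range above the nearest bLR rat, and bHR replicate 27 was the highest of the 12. The difference was +0.09 ± 0.08 (SE, 95% interval -0.08 to 0.25; limma adjusted p = 0.924; exact permutation p = 0.34), and it was +0.03 within the 9 brighter arrays.

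*Jag1*, the Jagged ligand that also acts in vessel walls, ran from 7.002 through a median of 7.25 to 7.32 in bHR and from 6.94 through 7.14 to 7.35 in bLR. The bHR rats other than replicate 47 clustered between 7.20 and 7.32, while the bLR rats were spread over the whole range. The difference was +0.06 ± 0.08 (SE, 95% interval -0.11 to 0.22; limma adjusted p = 0.951), and -0.0077 within the 9 brighter arrays.

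*Dll1*, a Delta ligand of committed neural progenitors, lay below the median of all probes in every rat. It read 6.21 to 6.49 in bHR and 6.26 to 6.50 in bLR, with a difference of -0.03 ± 0.06 (SE; limma adjusted p = 0.969). In both lines 2 rats stood above the others: bHR replicates 27 and 41 at 6.49 and 6.41, and bLR replicates 26 and 46 at 6.50 and 6.44. The remaining 8 rats lay between 6.21 and 6.29.

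*Dlk1* encodes an imprinted Delta-like protein that lacks the domain with which canonical ligands bind Notch. It exceeded the median of all probes in 1 rat, bHR replicate 33, at 6.74. The lowest value, 6.08, belonged to bHR replicate 27, and the other 4 bHR rats read 6.31 to 6.43, inside the bLR range of 6.30 to 6.45. The SD was 0.21 in bHR and 0.054 in bLR, with n = 6 in each. The within-line spread exceeded that of 97.6% of the 11072 probes not above the median in either line. The difference was -0.0085 ± 0.082 (SE; limma adjusted p = 0.994), +0.05 without replicate 27 and -0.08 without replicate 33, neither past the threshold.

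Of the target genes, *Hes5*, a basic helix-loop-helix repressor of radial glia and astrocytes, read 8.63, 8.45, 8.18, 8.32, 8.42 and 8.39 in bHR replicates 27, 29, 33, 39, 41 and 47. In bLR replicates 26, 28, 30, 38, 42 and 46 it read 8.13, 8.33, 8.27, 8.43, 8.14 and 8.12. The 3 lowest rats were bLR and the highest 2 were bHR, with the other 7 intermixed. The bHR mean was 8.40 ± 0.15 (SD, n = 6) and the bLR mean 8.24 ± 0.13, which differ by +0.16 ± 0.08 (SE, 95% interval 0.00016 to 0.32). It did not pass limma over all probes (adjusted p = 0.828, unadjusted 0.0498) or the exact permutation test (p = 0.0671). Its direction depended on scaling, with -0.07 under median centring and -0.27 for unscaled values. Unscaled, the median shift was -0.22 over all probes and -0.47 over the Notch-cutting proteases. Within the 9 brighter arrays the *Hes5* difference was +0.10 (limma adjusted p = 0.91).

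*Hes1*, the repressor that also acts on its own promoter, read 7.50, 7.55, 7.57, 7.66, 7.70 and 7.83 in bHR replicates 27, 29, 33, 39, 41 and 47. In bLR replicates 26, 28, 30, 38, 42 and 46 it read 7.47, 7.56, 7.62, 7.65, 7.63 and 7.42. The highest 3 rats were bHR and the lowest 2 bLR. The difference was +0.08 ± 0.06 (SE, 95% interval -0.06 to 0.21; limma adjusted p = 0.908; exact permutation p = 0.255). Within the 9 brighter arrays it was +0.15 (limma adjusted p = 0.87), and with median centring of all 12 it was -0.08. Among probes above the median, 21.7% had a smaller within-line SD than the 0.11 of *Hes1*.

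*Hey1*, a related repressor that is also a target in vascular cells, fell into separate levels within both lines. In bHR, replicates 27, 29, 33 and 47 read 7.47, 7.43, 7.43 and 7.39, and replicates 39 and 41 read 7.10 and 7.06. In bLR, replicates 30 and 46 read 7.44 and 7.38, and the other 4 read 7.16 to 7.23. No rat lay between 7.23 and 7.38. The difference between the lines was +0.06 ± 0.08 (SE, 95% interval -0.12 to 0.23; limma adjusted p = 0.952).

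The upstream sequences of *Hes1* and *Hes5* are shown because these are the repressors through which Notch activity is usually read. Both are the 250 bases before the RefSeq start site on GRCr8, 5′ to 3′ on the gene's strand, with capitals marking GTGGGAA or its complement TTCCCAC, the core of the Rbpj site.
Hes1 (chr11:84213046-84213295, minus strand): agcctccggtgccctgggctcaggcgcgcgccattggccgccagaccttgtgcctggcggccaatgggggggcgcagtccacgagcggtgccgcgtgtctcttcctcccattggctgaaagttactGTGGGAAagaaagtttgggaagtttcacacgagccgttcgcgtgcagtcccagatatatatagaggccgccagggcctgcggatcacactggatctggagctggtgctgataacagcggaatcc
Hes5 (chr5:170804327-170804576, plus strand): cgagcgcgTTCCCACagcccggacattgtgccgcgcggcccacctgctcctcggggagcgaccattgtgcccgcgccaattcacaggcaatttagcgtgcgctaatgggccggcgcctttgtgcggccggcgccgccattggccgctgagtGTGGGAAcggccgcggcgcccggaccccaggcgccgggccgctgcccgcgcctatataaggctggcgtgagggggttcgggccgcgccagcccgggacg
*Hes1* held 1 match, which begins at -124 from the start site, and *Hes5* held 2, at -242 on the opposite strand and at -99. Both strands were searched, and 5.27% of 33469 rat promoter windows of this length held GTGGGAA. Upstream sequence was matched for 9 of the 10 genes, *Hey1* being the exception, and 3 of the 9 held it, the third being *Dll1* with 1 match at -185. The site CACGNG, bound by Hes and Hey proteins, was found in 6 of the 9 and in 22.5% of all windows, 4 times in *Hes1* and not in *Hes5*. These shares are not matched for base composition. The windows of the 9 genes held 61.6% to 83.6% G and C, where the median of all windows was 51.2%. *Jag2* was also searched in more than 1 window. The part of base composition in the shares was not tested. No match of 1 site overlapped a match of the other. A match describes these letters and is no measure of binding.

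**Figure D2:**
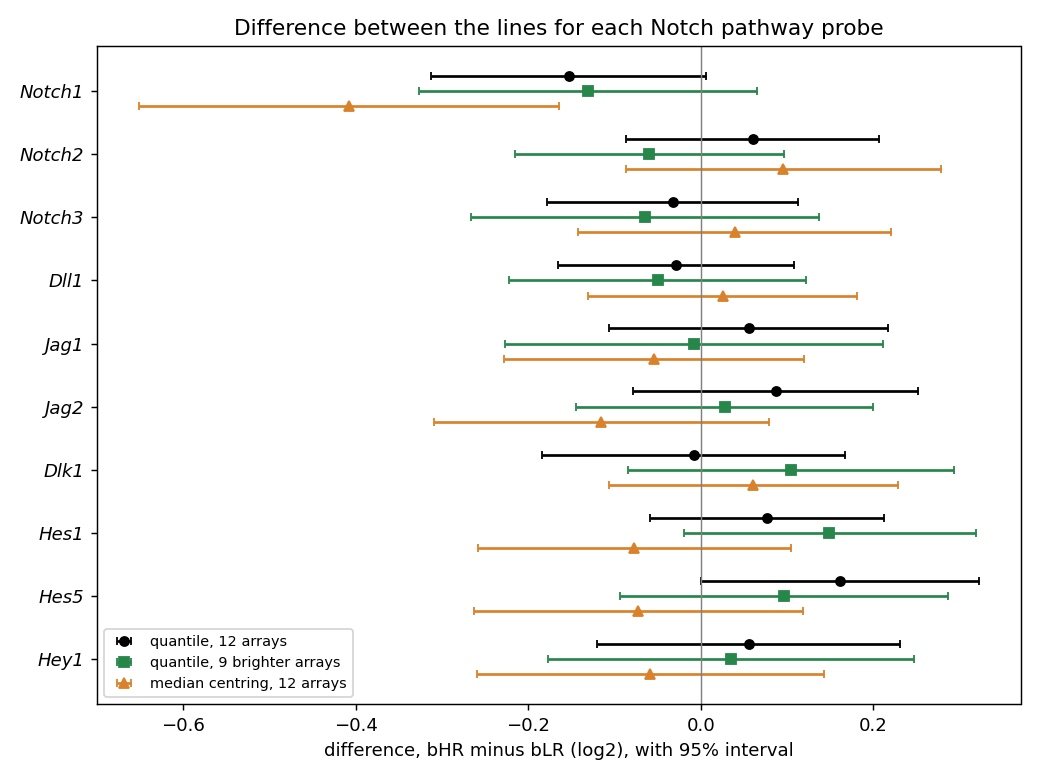
Difference between the lines (bHR minus bLR, log2) for each of the 10 probes with its 95% interval, after quantile normalisation of 12 arrays (black circles), of the 9 brighter arrays (green squares), and with median centring of 12 arrays (orange triangles). *Notch1* (-0.15, -0.13 and -0.41) lies below 0 in all 3 settings, and each of the other 9 lies on both sides of 0 across the settings.

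Variation between rats was compared for the 6 genes above the median of all probes, as 15 pairs over 12 rats, and no pair passed after Benjamini-Hochberg adjustment. The closest was *Notch1* with *Hes5*, which ran in opposite directions: Pearson's r was -0.663 (permutation p = 0.018, adjusted 0.27) and Spearman's rho was -0.776 (permutation p = 0.0043, adjusted 0.065). Without the 2 rats farthest from the *Notch1* median r was -0.729, and without bHR replicate 27 alone it was -0.473. Within the lines r was -0.757 in bHR and -0.403 in bLR, and over the 9 brighter arrays it was -0.458. *Jag2* and *Hes5* gave r = 0.552 (permutation p = 0.063, adjusted 0.47) and rho = 0.622 (permutation p = 0.034, adjusted 0.26), with r = 0.89 in bHR, -0.191 in bLR, 0.0844 over the 9 brighter arrays and 0.151 without bHR replicate 27. Without the 2 rats farthest from the *Jag2* median, bHR replicate 27 among them, r was 0.699. For *Hes1* with *Hes5*, r was 0.275 (permutation p = 0.39, adjusted 0.84) and rho 0.287 (permutation p = 0.37, adjusted 0.62), with -0.268 in bHR, 0.648 in bLR and 0.735 over the 9 brighter arrays. Without the 2 rats farthest from the *Hes1* median r was 0.0071, and without bHR replicate 27 alone it was 0.597.

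**Figure D3:**
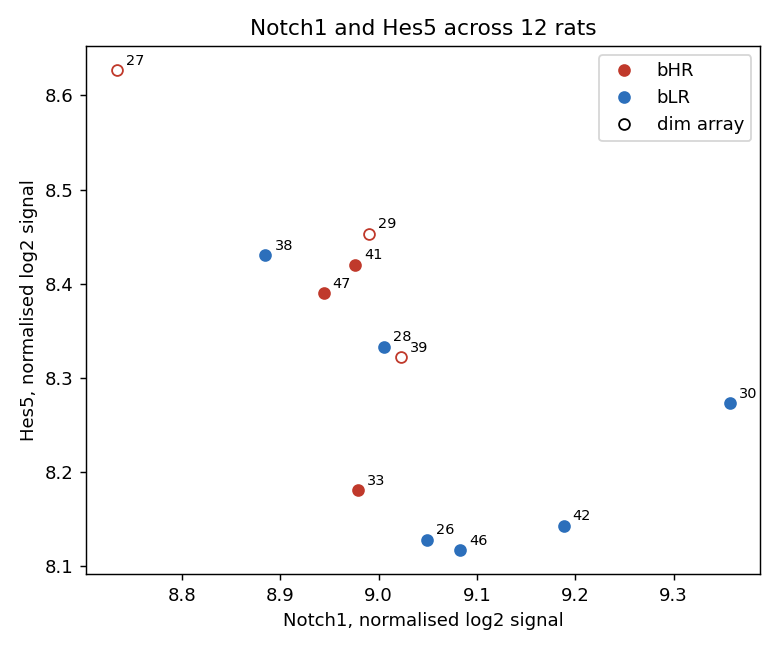
Normalised log2 signal of *Hes5* against that of *Notch1* in the 12 rats, labelled by replicate number, with bHR in red, bLR in blue and open circles for dim arrays. bHR replicate 27 has the lowest *Notch1* (8.73) and the highest *Hes5* (8.63).

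bHR replicate 27 was the highest or lowest of the 12 rats for 6 of the 10 genes. It was highest for *Notch2*, *Jag2*, *Hes5* and *Hey1*, and lowest for *Notch1* and *Dlk1*. It held such an end position for 33.4% of all probes, more than the 11.6% to 23.2% of the other rats. bLR replicate 46 was the lowest rat for 4 genes, *Notch3*, *Jag2*, *Hes1* and *Hes5*, and held an end position for 11.6% of all probes.

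Other genes of the pathway were described as 5 lists, none of which held a gene past limma's adjusted p of 0.05 in either direction. For the proteases that cut Notch, 8 of 9 genes were measured and 6 had lower means in bHR, with a median of -0.03 and a range of -0.14 to +0.03. *Adam10*, which makes the first cut after ligand binding, differed by -0.14 ± 0.07 (SE; limma adjusted p = 0.828), and *Psenen*, a gamma-secretase subunit, by -0.12 ± 0.16 (limma adjusted p = 0.946), turning to +0.10 within the 9 brighter arrays. Of 21 genes for other receptors and ligands and for their glycosylation, endocytosis and turnover, 18 were measured, with 11 higher, 7 lower and a median of +0.05. *Dtx4*, a Deltex ubiquitin ligase, differed by -0.15 ± 0.08 (limma adjusted p = 0.838) and *Dll4*, the Delta ligand of endothelium, by +0.10 ± 0.06 (limma adjusted p = 0.855). *Dll4* was dimmer than the median probe in either line.

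Of 20 genes for Rbpj and its coactivators and corepressors 18 were measured, with 7 higher, 11 lower and a median of -0.03. *Rbpj* itself, read by a probe labelled LOC679028 on the array, averaged 6.81 in both lines, not far above the median of all probes (6.66). The *Rbpj* difference was +0.0048 ± 0.080 (SE), and -0.101 within the 9 brighter arrays. *Kat2a*, a histone acetyltransferase, had the lowest p of this list (-0.15 ± 0.06, limma adjusted p = 0.794), followed by the corepressor *Cir1* (+0.13 ± 0.07, limma adjusted p = 0.838), which turned to -0.13 under median centring. Of 12 further Hes and Hey genes and genes reported as Notch targets, 11 were measured, with 4 higher, 7 lower and a median of -0.03. *Sox9*, a transcription factor of astrocytes and radial glia, had a bHR mean of 6.65 ± 0.10 (SD, n = 6) and a bLR mean of 6.86 ± 0.07 at its brighter probe, which differ by -0.21 ± 0.06 (SE; limma adjusted p = 0.384). This bHR mean lay just under the median of all probes (6.66). The other *Sox9* probe, with a mean of 6.529 over the 12 rats, gave -0.002 ± 0.073. The cyclin *Ccnd1* differed by -0.16 ± 0.07 (limma adjusted p = 0.824).

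Proneural factors and immature neuron genes, which Hes proteins repress or which follow in neuronal differentiation, were measured for 11 of 13, with 5 higher, 6 lower and a median of -0.05. *Atoh1*, a proneural factor, was dimmer than the median probe in either line and differed by +0.09 ± 0.05 (limma adjusted p = 0.865).

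**Figure D4:**
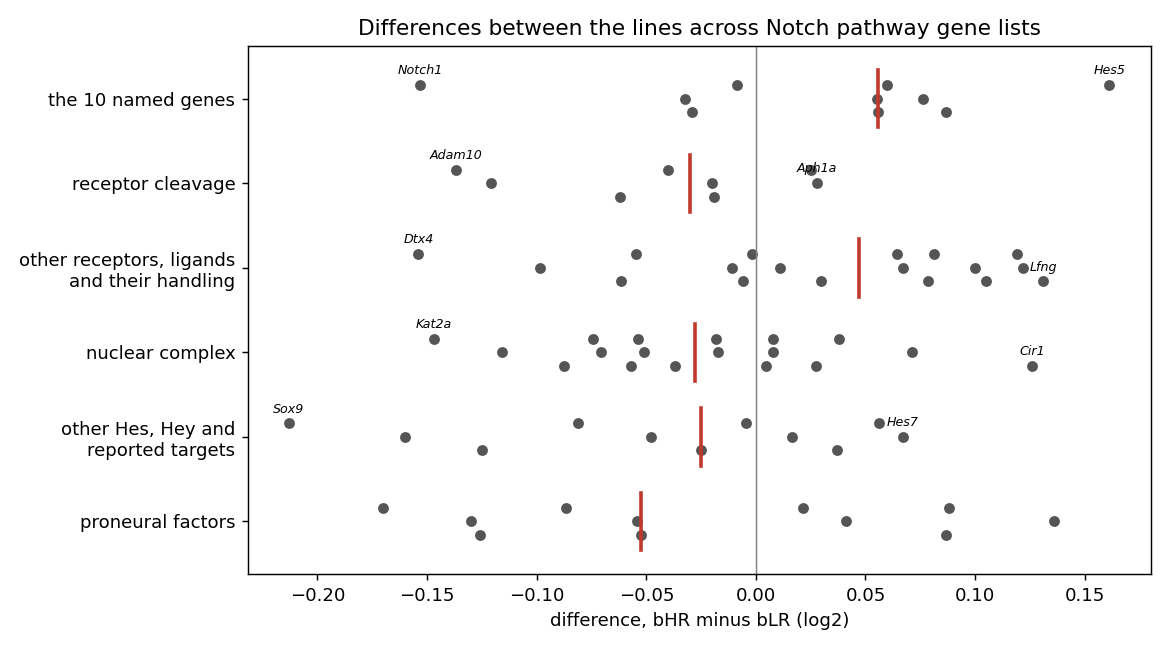
Difference between the lines (bHR minus bLR, log2) for the 10 genes and for each measured gene of the 5 other pathway lists (grey points), with the median of each list (red bar) and the outermost genes of the first 5 rows named. All points lie between -0.21 (*Sox9*) and +0.16 (*Hes5*), and none passed limma at an adjusted p of 0.05.

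Markers of the cells that carry Notch receptors were set beside these values. For astrocytes and radial glia 11 of 12 markers were measured, with a median difference of -0.0046 and a summed linear signal of 61350 to 75020 units in bHR and 62000 to 73130 in bLR. Neural progenitor markers, 4 of 7 measured, had a median difference of -0.12. They summed to 1607 to 2038 units in bHR and 1819 to 2295 in bLR. For endothelial cells, with 6 of 9 markers measured, the median difference was -0.0035. Their sums were 6517 to 7432 in bHR and 6240 to 8146 in bLR. The part of these cells in the receptor and target values was not tested.

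As a description, the genes whose signal most resembled that of each of the 6 brighter members over the 12 arrays were picked by Pearson's r among 9303 probes above the median with an official symbol. The best for *Notch1* were *Hacd2* (r = 0.914) and *Npm3* (r = 0.841), and for *Hes5* *Oprl1* (r = 0.884) and *Lysmd1* (r = 0.877). For *Hes1* they were *Atat1* (r = 0.916) and *Hoxc8* (r = 0.913), and for *Hey1* *Agfg2* (r = 0.927) and *Sqstm1* (r = 0.897). For *Jag1* they were *Cxcl17* (r = 0.921) and *Bmp1* (r = 0.897), and for *Jag2* *Grin1* (r = 0.922) and *Brd9* (r = 0.919). Without bHR replicate 27 these r ran from 0.793 (*Jag2* with *Brd9*) to 0.929 (*Hey1* with *Agfg2*). Being the highest of 9303 values, these r carry no test, and the arrays share their brightness and normalisation.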

How the data were processed

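The 12 RatRef-12 arrays hold 1 rat each. Per the labels' protocols and design text, average bead signals were read by the authors through limma 3.28.21, then log2 transformed and quantile normalised by preprocessCore 1.34.0. The deposited intensity table holds linear signals of 22523 probes, and the authors' deposited log2 table holds the normalised values. The sources used here do not say whether background was corrected. No detection p-value was used.

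Here the intensities were again put on the log2 scale and quantile normalised, which differed from the authors' log2 values by at most 0.254. Line was the only factor of the limma fit (version 3.58.1, R 4.3.3). Its two-sided p-values were adjusted by Benjamini-Hochberg across the 22523 probes, and 0.05 was the threshold. Permutation tests used scipy 1.17.1 and numpy 2.4.6, with all assignments of rats for differences and 100000 resamples for correlations. The fit was tested on simulated data. Members were matched by file symbol, other genes also through GRCr8 names (10281 probes by symbol, 4969 by synonym, 1641 by gene identifier), and the brightest probe stood for a listed gene.

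The members and lists were chosen with earlier results of these data known. Named were all members, the 2 genes of lowest p in each list (1 gene is not reported here), and the 2 probes most like each member above the median signal. Alternatives were other scaling, normexp with an offset of 50, a filter on dim probes, other variance models, brightness terms, and leaving out rats or the 3 dim arrays. The sites GTGGGAA and CACGNG were sought in RefSeq sequence.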

Additional observations from a re-analysis of the deposited data

Results flagged for a closer look

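The highest or lowest rat of a line was taken as far from the others where the gap to its neighbour, as a share of the range of the 6 values, passed Dixon's critical value at 95%. Of the 20 groups of 6 values for the 10 genes this held in 2, and chance alone does so in about 1 in 20 groups. *Notch1* in bHR replicate 27 read 8.73, where the nearest bHR rat read 8.94 and the highest 9.02, a gap of 0.726 of the range. Without this rat the *Notch1* difference was -0.11. *Jag2* in bLR replicate 42 read 8.20, where the nearest bLR rat read 7.96 and the lowest 7.89, a gap of 0.771 of the range. Without this rat the *Jag2* difference was +0.13, and without bHR replicate 27, the highest of the 12, it was +0.025.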

How the results depend on the processing

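None of the 10 genes passed limma under any alternative run, where the lowest adjusted p ran from 0.092 (*Notch1* without scaling) to 1.0. At an unadjusted limma p under 0.05 there was 1 gene, *Hes5*, in the reported setting (0.0498). *Hes5* missed that level with normexp (0.0503), the filter on dim probes (0.0644), no scaling (0.0662), a variance trend (0.0743) and array weights (0.0971). It also missed it with the brighter arrays (0.29), the brightness block (0.315), median centring (0.426) and the covariate (0.463). *Hes5* reached that level with the authors' log2 values (0.0499). It also did so without bHR replicate 33 (0.0135) or 39 (0.0474), or without bLR replicate 28 (0.0422) or 38 (0.0185). Leaving out any other rat gave 0.0591 (bLR replicate 30) to 0.119 (bHR replicate 27), which missed that level. *Notch1* reached it with median centring (0.00305), no scaling (0.00474) and without bLR replicate 38 (0.0172), and *Jag2* with no scaling (0.0379). *Notch1* kept its negative sign in every alternative. Median centring gave +0.039 for *Notch3*, +0.025 for *Dll1*, -0.054 for *Jag1*, -0.116 for *Jag2*, +0.061 for *Dlk1*, -0.077 for *Hes1*, -0.073 for *Hes5* and -0.058 for *Hey1*. Unscaled, with an overall median of -0.22, *Notch2* gave -0.10, *Jag1* -0.25, *Jag2* -0.31, *Hes1* -0.28, *Hes5* -0.27 and *Hey1* -0.26. The 9 brighter arrays gave -0.060 for *Notch2*, -0.0077 for *Jag1* and +0.104 for *Dlk1*, and brightness as a block -0.055, -0.0067 and +0.097. With the mean log2 signal as a covariate *Notch2* gave -0.078 and *Dlk1* +0.115, and with array weights *Dlk1* gave +0.035. Added after seeing the data, median centring of the brighter arrays gave -0.0485 for *Notch2*, -0.044 for *Jag1*, -0.031 for *Jag2*, +0.121 for *Dlk1* and -0.0081 for *Hey1*. No scaling there gave -0.091, -0.087, -0.074, +0.078 and -0.051 for the same 5 genes and -0.014 for *Hes5*. Leaving out 1 rat at a time gave -0.089 to +0.0029 for *Notch3*, -0.067 to +0.0038 for *Dll1* and -0.0785 to +0.052 for *Dlk1*. The other 7 kept their sign, over -0.194 to -0.101 for *Notch1*, +0.0168 to +0.0899 for *Notch2*, +0.0115 to +0.0991 for *Jag1*, +0.0254 to +0.133 for *Jag2*, +0.0366 to +0.105 for *Hes1*, +0.117 to +0.204 for *Hes5* and +0.0244 to +0.106 for *Hey1*. The lowest value came without bHR replicate 27 for *Notch2*, *Jag2*, *Hes5* and *Hey1*, without bHR replicate 47 for *Hes1* and without bLR replicate 42 for *Jag1*.

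The number of called probes, 20, was 6 with median centring, 4 without scaling, 6 with the brightness block, 4 with the covariate, 9 at a threshold of 0.01, and 9 and 1 on the brighter arrays with median centring and without scaling. It ran from 9 to 24 when a rat was left out. The list medians moved to -0.27 and -0.47 (proteases), -0.062 and -0.26 (receptor handling), -0.29 and -0.49 (nuclear complex), -0.18 and -0.38 (other targets), and -0.20 and -0.40 (proneural) with median centring and without scaling. On the brighter arrays they moved to +0.0335 for the proteases and -0.12 for the proneural list. With median centring and without scaling, the medians of all probes were -0.017 and -0.22. Each measured marker of astrocytes and radial glia was lower in bHR in both of those settings. So was each measured marker of oligodendrocyte precursors, and each hippocampal neuron marker above the median of all probes. With median centring the astrocyte and radial glia markers ran from -0.06 (*Slc1a3*) to -0.476 (*Hopx*). The ratio of a high to a low percentile of signal within an array was 31.12 to 33.06 on the dim arrays, all bHR. It was 52.4 to 67.22 on the brighter arrays. The cause was not tested. No paired analysis was possible because the lines share no replicate number. *Notch2*, *Notch3*, *Dll1* and *Dlk1* averaged under the median signal, where background limits what a probe can show.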
